A study of Homo sapiens with 10 samples.

Results

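The genes described here encode 10 subunits of the nucleosome remodelling and deacetylase (NuRD) complex: RBBP4, RBBP7, HDAC1, HDAC2, CHD4, MTA1, MTA2, MTA3, MBD2 and MBD3. They were chosen by name, and they are 10 of the 56303 genes listed in the RNA count files. All 10 passed the filter on low counts, among 25807 genes tested. None depended on 1 group to pass it, since the lowest value of any subunit in any library was 28.1 CPM, the usual depth-scaled unit of read counts, here with the TMM scaling of edgeR.

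All libraries came from SNU398, an established human hepatocellular carcinoma line grown in RPMI medium with 10% serum. Cells received a hairpin that targets SALL4, named shRNA-2 in the labels (knockdown, 2 libraries), or a scrambled hairpin (scramble, 2 libraries), and RNA was taken after 72 hours. SALL4 binding was mapped in nuclei by CUT&RUN (3 libraries), where a nuclease tethered to the antibody releases the DNA near its target, and the labels name no hairpin for these cells. The 3 libraries made with rabbit IgG were not analysed here. The knockdown thus rests on 1 hairpin in 1 line. The labels do not say that the replicates were separate cultures, and the p-values given here therefore reflect the spread of these particular libraries, possibly technical.

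NuRD joins a chromatin remodelling motor and histone deacetylases in one assembly, and it is mainly known as a corepressor. MTA proteins form its scaffold and hold the deacetylases, RBBP4 and RBBP7 bind histones, and MBD2 or MBD3 links the deacetylase part to the CHD remodeller, so that a complex holds either MBD2 or MBD3. Zinc finger proteins of the SALL family bring NuRD to chromatin through a short motif at their amino terminus, and SALL4 is a fetal factor that some liver cancers express again.

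RBBP7 lies on the minus strand at chrX:16844341-16870362 and MBD2 on the minus strand at chr18:54151606-54224669 (RefSeq, GRCh38.p14). These are the only 2 subunits whose RNA passed the test after knockdown. The 250 bases before the start of each are therefore shown, 5′ to 3′ on the gene's strand, with the longest run or runs of A and T in capitals, because the series title speaks of AT-rich DNA as what SALL4 recognises. The RBBP7 stretch is chrX:16870363-16870612 and the MBD2 stretch is chr18:54224670-54224919.
RBBP7: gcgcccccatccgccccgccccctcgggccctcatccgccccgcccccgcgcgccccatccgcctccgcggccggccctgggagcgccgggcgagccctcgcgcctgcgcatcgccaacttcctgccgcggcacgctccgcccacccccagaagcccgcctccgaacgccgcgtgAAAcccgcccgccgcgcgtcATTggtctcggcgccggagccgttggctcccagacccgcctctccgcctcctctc
MBD2: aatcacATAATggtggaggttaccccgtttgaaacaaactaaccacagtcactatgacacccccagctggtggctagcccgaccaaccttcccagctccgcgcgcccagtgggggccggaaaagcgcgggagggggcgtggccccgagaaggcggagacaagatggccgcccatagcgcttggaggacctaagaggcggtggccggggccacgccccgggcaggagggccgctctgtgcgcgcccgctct
The RBBP7 stretch was 79.6% G and C, and its longest runs of A and T were 2 runs of 3 bases. The MBD2 stretch was 66.4% G and C, and its longest run had 5 bases. Over 35116 RefSeq upstream stretches of this length the median longest run was 6 bases, and over the 14 stretches of the 10 subunits, some of which have several starts, it ranged from 3 to 7. The letters AATAT, or ATATT on the other strand, occurred in 0 of the 14 subunit windows of 300 bases (250 before and 50 after the start), against 23.01% of all windows of that length. The longer AATATT, each match of which holds AATAT, occurred in 0 of 14 against 6.96% of all windows. G and C content of these windows was 58.0% to 79.7% with a median of 72.7%, against a median of 58.7% over all windows, and 13 of 14 lay above that median.

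The RNA libraries held 158934493 to 225624957 counts. SALL4 itself stood at 74.5 and 58.7 CPM in scramble and at 21.6 and 18.7 CPM in knockdown. The labelled cell type was compared with marker genes. Of 10 hepatocyte and hepatoma markers, 9 were under 1 CPM in every library, ALB and HNF4A among them, and GPC3 was the exception. Leukocyte markers were under 1 CPM for 5 of 6, CORO1A being the exception, and so were 5 of 5 endothelial markers. Fibroblast markers COL1A1, COL1A2, DCN and LUM exceeded 1 CPM, and the sum of the 5 fibroblast markers was 118 to 149 CPM in knockdown and 164 to 272 CPM in scramble. The sum of the 6 leukocyte markers was 5.67 to 6.34 CPM in knockdown and 9.75 to 11.0 CPM in scramble. CORO1A and COL1A1 were called lower, at -0.86 and -0.94 on the log2 scale (edgeR, adjusted p = 0.0204 and 0.0292). Both sums moved with the knockdown, and their part in the results on the subunits was not tested. In bulk RNA, fewer cells of a kind and less RNA per cell cannot be told apart.

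After SALL4 knockdown RBBP7 was the subunit with the largest change, 3.03-fold lower, and MBD2 rose 1.59-fold. The other 8 subunits did not pass the test. By the quasi-likelihood test of edgeR with Benjamini-Hochberg adjustment, 1 of the 10 subunits was called higher and 1 lower at an adjusted p under 0.05, beside 5.55% of all genes tested (2.31% higher and 3.25% lower). The median log2 fold change over the 10 subunits was -0.11, beside 0.00 over all genes tested. Without regard to sign, the median was 0.20 for the subunits, 0.30 for all genes tested and 0.24 for the 14370 genes with a mean of at least 1 CPM. The knockdown and scramble libraries did not overlap for 6 of 10 subunits, beside 47.1% of all genes tested. RBBP4 and MBD2 were higher (24.2% of all genes) and RBBP7, HDAC1, HDAC2 and MTA1 lower (22.9%).

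**Figure D1:**
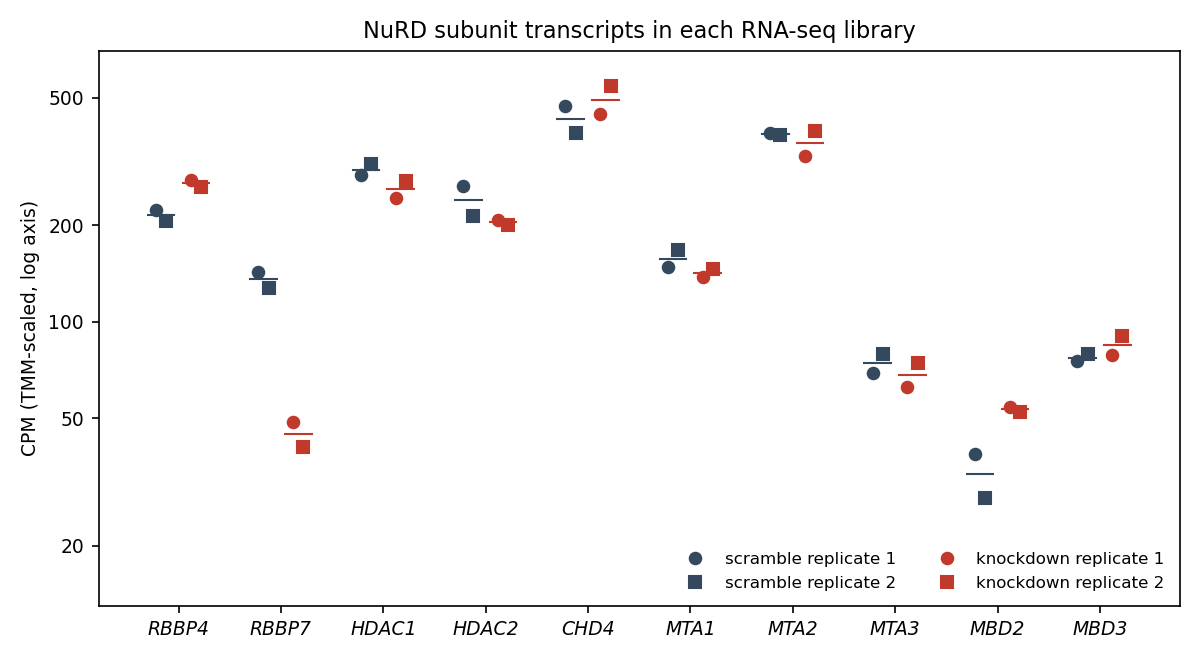
TMM-scaled CPM on a log axis for the 10 subunits in each of the 4 RNA libraries, with scramble in blue, knockdown in red, circles for replicate 1, squares for replicate 2 and short lines for group means. RBBP7 shows the widest gap, from 128 to 143 CPM in scramble to 40.7 to 48.6 CPM in knockdown, and levels of different genes cannot be compared because CPM is not divided by transcript length.

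The histone-binding subunits RBBP4 and RBBP7 are close paralogues that occupy the same place in NuRD and also serve other chromatin complexes. RBBP7 stood at 143.1 and 127.7 CPM in scramble replicates 1 and 2 and at 48.6 and 40.7 CPM in knockdown replicates 1 and 2. The higher knockdown library was still far below the lower scramble library, so the groups did not overlap. Group means were 135.4 ± 10.9 CPM in scramble and 44.7 ± 5.60 CPM in knockdown (SD, n = 2 each). The log2 fold change was -1.60 with a standard error of 0.18 and a 95% interval of -1.98 to -1.22 (edgeR, adjusted p = 7.07e-06). Among the 760 genes of at least 1 CPM that were called lower, 48 fell further. Over 10 other ways of processing, the replicate block not counted, the log2 fold change of RBBP7 ran from -1.73 to -1.48, and the call held in 10 of 10.

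RBBP4 stood at 223.4 and 205.4 CPM in scramble and at 275.9 and 263.8 CPM in knockdown. Both knockdown libraries were above both scramble libraries, the opposite order to RBBP7. Its log2 fold change was 0.33 with a 95% interval of -0.04 to 0.70 and did not pass the test (edgeR, adjusted p = 0.350). The authors' deposited table lists RBBP4 at 0.26 on the log2 scale, with an adjusted p of 0.0125. That table calls 3 of the 10 subunits, RBBP4, RBBP7 and MBD2, and 37% of its 15141 genes. Its title speaks of 3 libraries in each group, while 2 in each were used here. In the authors' deposited table RBBP7 is at -1.47 and MBD2 at 0.62 on the log2 scale.

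**Figure D2:**
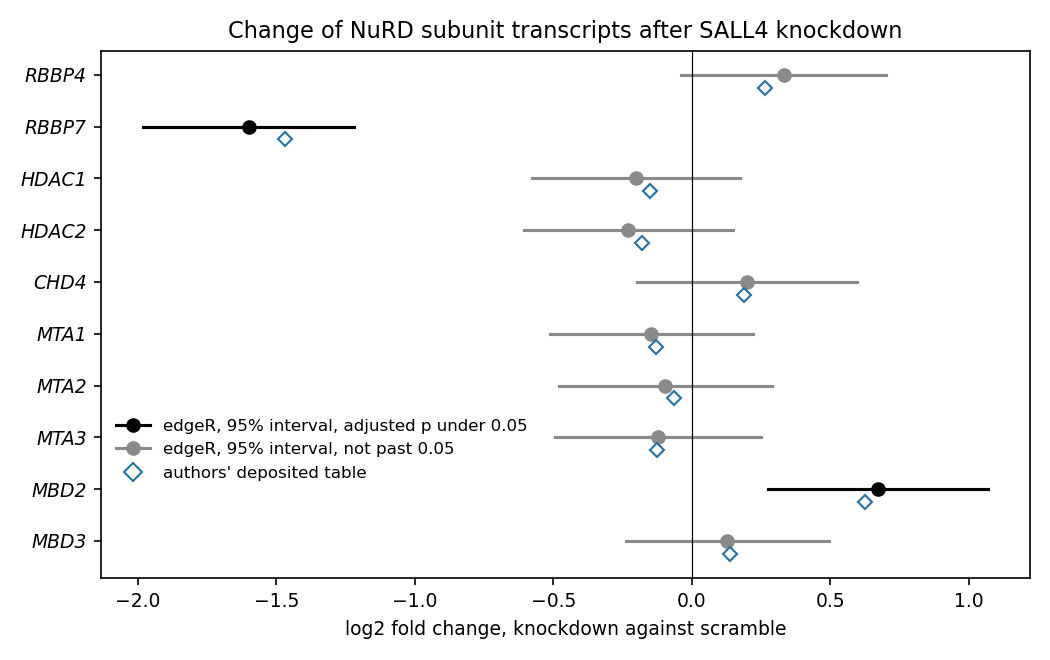
Log2 fold change of each subunit, knockdown against scramble, with circles and 95% intervals (not adjusted over genes) from edgeR and open diamonds from the authors' deposited table. The intervals of RBBP7 (-1.98 to -1.22) and MBD2 (0.27 to 1.07) lie away from 0 and those of the other 8 subunits cross it.

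The share of a gene in the summed counts of its paralogues does not depend on the scaling between libraries, although each share also carries the unequal lengths of the transcripts. RBBP7 held 39.1% and 38.3% of the RBBP4 and RBBP7 counts in scramble. It held 15.0% and 13.4% in knockdown, a difference of -24.5 percentage points between the means. From the group SDs (n = 2 each), the SD of a difference between single libraries was 1.24. All knockdown values lay below all scramble values, but with 2 libraries against 2 an exact permutation test cannot give a p below 0.333, so none is given. In the combined count matrix, which gives lower counts for these libraries, the share of RBBP7 was 42.7% and 42.9% in scramble and 19.2% and 17.5% in knockdown. The sum of both genes was 366.5 and 333.1 CPM in scramble and 324.5 and 304.5 CPM in knockdown. Its mean was thus 10.1% lower after knockdown, a smaller difference than that of RBBP7 alone, and the groups did not overlap.

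**Figure D3:**
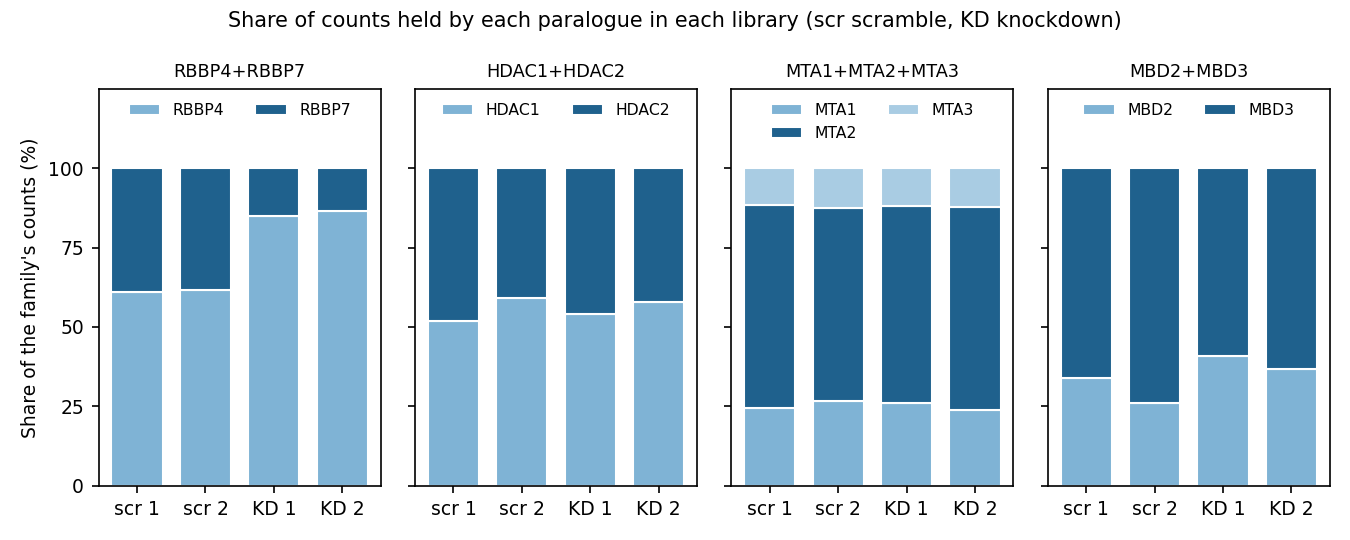
Percent of the summed raw counts of each paralogue group held by each member in each library (scr scramble, KD knockdown, bars stacked to 100%). The RBBP7 share fell from 38.3% to 39.1% in scramble to 13.4% to 15.0% in knockdown, while in these library files the shares of the deacetylases and of the MTA genes overlapped between groups.

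Counting of RBBP4 and RBBP7 could be touched by neighbouring and copied genes. TXLNG overlaps the end of RBBP7 by 179 bases on the opposite strand, and the strand setting of the counting is not given in the sources used here, so reads from that stretch cannot be assigned to one gene. TXLNG had a log2 fold change of -0.29 (edgeR, adjusted p = 0.451). SYNC overlaps 6306 bases of RBBP4 on the opposite strand and held 22 to 30 counts a library, against 32656 to 57481 for RBBP4. The RBBP4 pseudogene with most counts, RBBP4P2, held 25 to 61 counts a library. The combined matrix gave RBBP4 0.463 to 0.658 of the counts of the library files, the lowest ratio of the 10 subunits in each library, where the median over 12809 genes was 0.636 to 0.882.

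The deacetylases HDAC1 and HDAC2 remove acetyl groups from histones and form the catalytic pair of NuRD, and of SIN3 and CoREST as well. HDAC1 stood at 286.0 and 309.5 CPM in scramble and at 243.7 and 274.3 CPM in knockdown. HDAC2 stood at 264.4 and 213.6 CPM in scramble and at 207.1 and 200.8 CPM in knockdown. Both genes were lower in every knockdown library than in every scramble library, by small margins. Neither passed the test, with a log2 fold change of -0.20 (95% interval -0.58 to 0.17) for HDAC1 and -0.23 (-0.61 to 0.15) for HDAC2 (edgeR, adjusted p = 0.642 and 0.581). Leaving out each library in turn gave -0.30 to -0.12 for HDAC1. For HDAC2 the value was -0.07 without scramble replicate 1 and -0.36 without scramble replicate 2. Their summed level was 550.3 and 523.1 CPM in scramble and 450.8 and 475.0 CPM in knockdown, 13.7% lower on average with no overlap. HDAC2 held 48.0% and 40.8% of their counts in scramble and 45.9% and 42.3% in knockdown, so the knockdown values lay between the scramble values.

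CHD4 is the ATP-driven motor that slides nucleosomes. Its values were 470.0 and 388.4 CPM in scramble and 443.3 and 542.3 CPM in knockdown. The groups overlapped, since knockdown replicate 1 was below scramble replicate 1. The log2 fold change was 0.20 with a 95% interval of -0.20 to 0.60 (edgeR, adjusted p = 0.672). Leaving out each library in turn gave 0.04 to 0.34. CHD4-AS1 and LOC124902867 overlap 14670 and 1494 bases of CHD4 on the opposite strand. LOC105374555 overlaps 36950 bases of MTA3, and HDAC2-AS2 overlaps 1448 bases of HDAC2, also on the opposite strand. As the strand setting is not given, it is not known whether reads of these 4 genes were counted with the subunits.

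The MTA proteins are the scaffold on which the deacetylases dimerise, and a complex is built with one or another of them. MTA1 stood at 147.6 and 167.1 CPM in scramble and at 138.0 and 146.4 CPM in knockdown, a gap of little more than 1 CPM between the closest libraries. MTA2 stood at 387.4 and 383.4 CPM in scramble and at 328.4 and 393.1 CPM in knockdown. MTA3 stood at 69.4 and 79.1 CPM in scramble and at 62.4 and 74.0 CPM in knockdown. MTA1 did not overlap between groups, whereas MTA2 and MTA3 did. Their log2 fold changes were -0.15, -0.10 and -0.12, and none passed the test (edgeR, adjusted p = 0.758, 0.871 and 0.814). All 3 values hung on single libraries. Without knockdown replicate 1, MTA2 was at 0.030 and MTA3 at -0.0020, and without scramble replicate 2, MTA1 was at -0.04 and MTA3 at -0.01 (edgeR, adjusted p = 0.971 to 0.999). The mix of the 3 scaffold transcripts stayed within narrow bounds. MTA1 held 23.9% to 26.5% of the 3 genes' counts over the 4 libraries, MTA2 60.9% to 64.1% and MTA3 11.5% to 12.6%, and for each gene the knockdown and scramble shares overlapped. In the combined matrix those of MTA1 and MTA2 overlapped too, while the MTA3 share was 12.956% and 12.958% in knockdown and 12.969% and 13.6% in scramble, with no overlap.

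MBD2 binds methylated CpG sites, while MBD3 in mammals has largely lost that binding. MBD2 stood at 38.7 and 28.1 CPM in scramble and at 54.3 and 52.1 CPM in knockdown. All knockdown values were above all scramble values, and the scramble libraries lay further apart than the knockdown libraries, with scramble replicate 2 being 27.3% lower than scramble replicate 1. SNORA37 lies inside MBD2 and held 35 to 54 counts a library, against 4472 to 11363 for MBD2. Group means were 33.4 ± 7.47 CPM in scramble and 53.2 ± 1.53 CPM in knockdown (SD, n = 2 each). The log2 fold change was 0.67 with a standard error of 0.19 and a 95% interval of 0.27 to 1.07 (edgeR, adjusted p = 0.0389). Over 10 other ways of processing the log2 fold change stayed positive, from 0.47 to 0.92, but the call held in 4 of 10, with an edgeR or DESeq2 adjusted p of 0.00918 to 0.407. These 10 settings do not count the replicate block, with which MBD2 was called at 0.69 (edgeR, adjusted p = 5.82e-06). MBD2 was no longer called by edgeR when knockdown replicate 1 (adjusted p = 0.146), knockdown replicate 2 (0.0946) or scramble replicate 2 (0.407) was left out.

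MBD3 stood at 75.3 and 79.3 CPM in scramble and at 78.9 and 90.2 CPM in knockdown, and the groups overlapped. Its log2 fold change was 0.13 with a 95% interval of -0.24 to 0.49 (edgeR, adjusted p = 0.795). MBD2 held 33.9% and 26.2% of the counts of the pair in scramble and 40.8% and 36.6% in knockdown. The difference between the means was 8.64 percentage points, and the SD of a difference between single libraries, from the group SDs, was 6.22. The knockdown shares were all above the scramble shares. The summed level of MBD2 and MBD3 was 114.0 and 107.4 CPM in scramble and 133.2 and 142.3 CPM in knockdown, 24.4% higher on average with no overlap. Of the 4 paralogue groups this was the one whose sum was higher after knockdown.

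The number of subunits called was read against all genes in each other setting. Both RBBP7 and MBD2 were called without scramble replicate 1 (4.33% of all genes called), with DESeq2 size factors in edgeR (6.03%), with no filter on low counts (4.6%), with DESeq2 (4.44%) and with the replicate number as a block (19.1%). RBBP7 alone was called without knockdown replicate 1 (3.26%), knockdown replicate 2 (3.42%) or scramble replicate 2 (2.94%). RBBP7 was also the only one called with scaling by library size only (2.29%), with a mean CPM of at least 5 (5.87%) and in the combined matrix (5.26%). The combined matrix with the block called RBBP4, RBBP7 and MBD2 (28.4%).

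**Figure D4:**
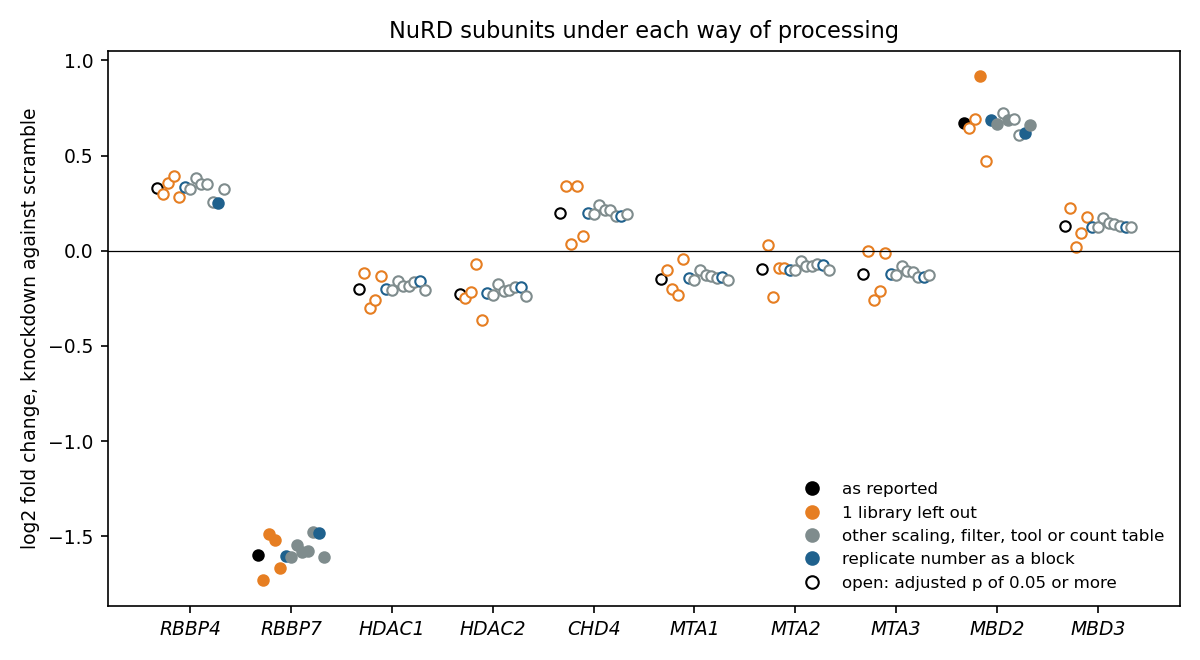
Log2 fold change of each subunit, knockdown against scramble, as reported (black), with 1 library left out (orange), with another scaling, filter, tool or count table (grey) and with the replicate number as a block (blue), where open points have an adjusted p of 0.05 or more. RBBP7 is filled throughout, MBD2 keeps its sign but changes between filled and open, and MTA2 crosses 0 to 0.030 in 1 setting.

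The common SALL4 regions, which the authors merged over the 3 CUT&RUN libraries, overlapped the RefSeq span of 1 of the 10 subunits, MTA1, beside 14.4% of the 19232 tested genes that have a span. MTA1 lies on the plus strand at chr14:105419827-105470729. The region at chr14:105470134-105472700 covers the last 596 bases of the gene and runs on towards CRIP2, which starts at 105472945. No base of it was in a peak of all 3 libraries. Inside it, library 1 had a peak at 105472115-105472285 and library 3 had peaks at 105470753-105470816 and 105471640-105471718, all past the end of MTA1. The library 2 peak at 105470611-105470658 was the one inside the gene. Each of these peaks was 3 or 4 steps high, a step being the smallest difference between peak heights in its library. MTA1 RNA did not pass the test after knockdown.

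**Figure D5:**
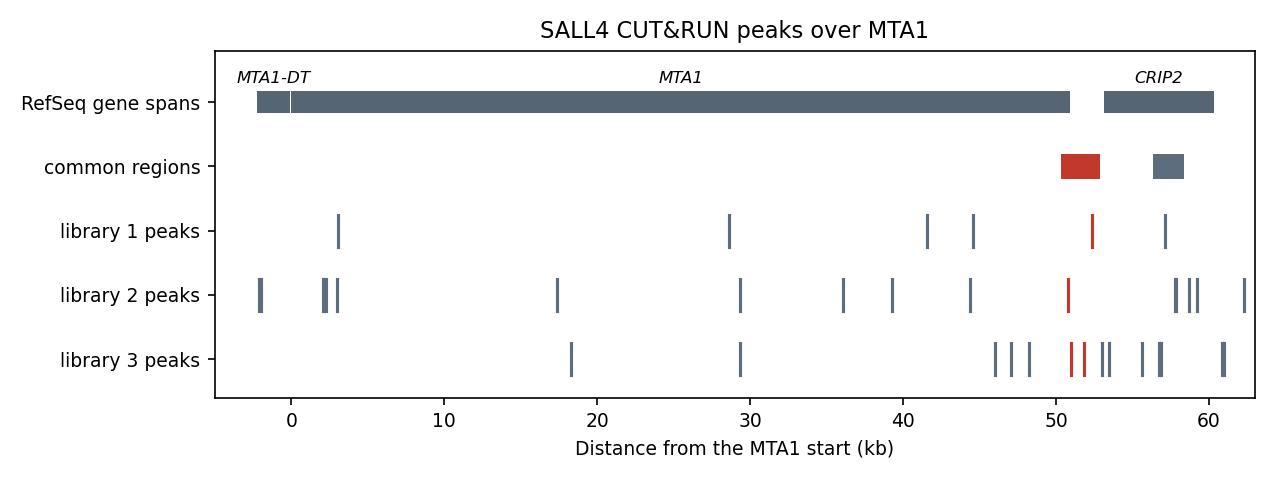
Position in kb from the MTA1 start of RefSeq gene spans, common SALL4 regions and the peaks of each CUT&RUN library, with the region that overlaps MTA1 and its peaks in red. The red region straddles the end of the 50.9 kb gene, and of its 4 peaks the one of library 2 lies inside the gene.

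The other 9 subunits had no common region in their span. The nearest one was 5.72 kb from CHD4, 9.92 kb from MTA3, 75.9 kb from HDAC1, 125.5 kb from MTA2 and 149.5 kb from HDAC2. It was 269.4 kb from MBD3, 435.0 kb from RBBP4, 458.1 kb from MBD2 and 4830.0 kb from RBBP7. The share of genes with a region differed between chromosomes. On chromosome X, which holds RBBP7, 1.56% of tested genes had a common region in their span, and on chromosome 14, which holds MTA1, 33.9% had one. The share was 8.95% on chromosome 18, which holds MBD2, and 4.29% on chromosome 19, which holds MBD3. Widening the spans by 10 kb added CHD4 and MTA3 to MTA1, which made 3 of 10 subunits beside 18.6% of all genes. With at least 50% of the region inside the span the count was 0 of 10, beside 12.3%. With regions that have a position covered in all 3 libraries it was also 0 of 10, beside 1.81%, and with spans widened by 3 kb it was 1 of 10, beside 16%.

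Single libraries gave more. Library 1 had a peak in the span of 5 of 10 subunits, library 2 of 9 and library 3 of 8, beside 44.7%, 74.35% and 70.2% of all tested genes with a span. All 3 libraries had a peak in HDAC1, MTA1, MTA3 and RBBP4, which is 4 of 10 beside 39.5% of all such genes. MTA3 held the most peaks, 10 in library 1, 22 in library 2 and 32 in library 3, and with 262.8 kb it is the longest of the 10 genes. Per 10 kb these are 0.380, 0.837 and 1.22 peaks, beside 0.289, 1.51 and 1.16 over all spans pooled. MTA1 held 4, 10 and 5 peaks in libraries 1, 2 and 3, or 0.786, 1.96 and 0.982 per 10 kb.

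RBBP7 had 3 peaks in library 2 and none in libraries 1 and 3. They lay 189 to 259, 721 to 799 and 1153 to 1227 bases inside the gene from its start and were 3, 4 and 4 steps high. MBD2 had 0, 2 and 6 peaks in libraries 1, 2 and 3. No peak of any library lay over the upstream stretches of RBBP7 and MBD2 printed above. RBBP7 has 2 RefSeq start windows, and the inner one, chrX:16869814-16870113, was not printed. The library 2 peak nearest the outer start, at chrX:16870103-16870173, overlapped that inner window. Within 1 kb of its start MBD2 had 0, 0 and 1 peaks in libraries 1, 2 and 3. Such peaks were not particular to the called subunits. Of the 10 subunits, 0, 5 and 6 had a peak within 1 kb of the start in libraries 1, 2 and 3. The share over all genes was not taken. The highest peak over any of the 10 subunits was 6 steps, and sequences under the peaks were not read.

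Lists of related genes were followed in the same fit. They hold 91 genes in 7 lists, of which 90 were tested, and 6 were called higher and 2 lower, or 8.89% called beside 5.55% of all genes tested. Their median log2 fold change was 0.11. Among 8 other NuRD subunits, which include the remodeller CHD5 and the small subunit CDK2AP2, edgeR and DESeq2 each called 0 at the adjusted threshold. The members furthest from 0 were CHD5 at -0.53 and CDK2AP2 at -0.36 on the log2 scale (edgeR, adjusted p = 0.0915 and 0.368). The list's median was -0.05. With the listed subunits included, edgeR thus called RBBP7 and MBD2 among 18 NuRD genes.

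The counts of each list stand beside the 5.55% called over all genes. Factors known to recruit NuRD had 2 of 15 tested members called higher and none lower, with a median log2 fold change of 0.36. BCL6, a zinc finger repressor, stood at 5.11 and 7.07 CPM in scramble and at 10.7 and 14.4 CPM in knockdown. Its log2 fold change was 1.04 (edgeR, adjusted p = 0.00770), and it was not called without knockdown replicate 2 (0.80, adjusted p = 0.113) or without scramble replicate 1 (0.83, adjusted p = 0.101). Nor was BCL6 called with library size only or with a mean CPM of at least 5, so that it was called in 6 of 10 other settings. ZNF512B, a zinc finger protein with a SALL-like NuRD motif, changed by 0.61 (edgeR, adjusted p = 0.0420) and was called in 5 of 10. It was not called without any 1 of the 4 libraries (edgeR, adjusted p = 0.113 to 0.275) or with library size only.

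RBBP4 and RBBP7 also serve Polycomb, chromatin assembly and DREAM complexes, and 1 of 18 genes of such complexes was called (beside 5.55% of all genes), LIN54, a DNA-binding DREAM subunit. LIN54 stood at 63.6 and 47.6 CPM in scramble and at 31.6 and 27.1 CPM in knockdown, with no overlap. Its log2 fold change was -0.92 (edgeR, adjusted p = 0.00479), and without scramble replicate 1 it was -0.70 and not called (adjusted p = 0.101). With library size only LIN54 was not called either, and it was called in 8 of 10 other settings. The median over these 18 genes was 0.19.

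HDAC1 and HDAC2 also work in the SIN3, CoREST and MiDAC complexes. In the CoREST and MiDAC list 3 of 18 members were called, beside 5.55% of all genes. CTBP1, a corepressor that joins CoREST to DNA-binding repressors, stood at 194.2 and 196.7 CPM in scramble and at 93.1 and 99.5 CPM in knockdown. The groups lay far apart and each was narrow. The log2 fold change of CTBP1 was -1.02 with a standard error of 0.18 (edgeR, adjusted p = 8.87e-04), and it was called in 10 of 10 other settings. RCOR3, a CoREST scaffold, was at 0.76 and GSE1, a CoREST-associated protein, at 0.66 (edgeR, adjusted p = 0.0151 and 0.0252). RCOR3 was not called without knockdown replicate 1, knockdown replicate 2 or scramble replicate 2 (adjusted p = 0.0670, 0.0609 and 0.181), and GSE1 was not called without any 1 of the 4 libraries (0.0589 to 0.151). The median of this list was 0.08. In the SIN3 list 1 of 16 members was called, ARID4A, at 0.63 (edgeR, adjusted p = 0.0456), and the list's median was 0.14. ARID4A was called in 3 of 10 other settings, and without any 1 of the 4 libraries it was not (edgeR, adjusted p = 0.0698 to 0.360).

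Of 9 other classical histone deacetylases 1 was called (beside 5.55% of all genes), HDAC5, a class IIa enzyme that is not a NuRD subunit. It stood at 13.7 and 19.7 CPM in scramble and at 44.3 and 57.3 CPM in knockdown. Every knockdown library was more than 2 times as high as every scramble library. The log2 fold change was 1.61 with a standard error of 0.21 (edgeR, adjusted p = 6.57e-05), and it was called in 10 of 10 other settings, while the median of the list was -0.13. Among 6 other methyl-CpG binding genes edgeR and DESeq2 called 0. MBD6 was at 0.48 and MBD1 at 0.24 on the log2 scale (edgeR, adjusted p = 0.230 and 0.536), and the median was 0.09.

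A common SALL4 region lay in the span of 1 of the 8 other NuRD genes, CDK2AP2. All such counts stand beside 14.4% of the tested genes that have a span. The count was 6 of 15 for the recruiting factors, 8 of 18 for the CoREST and MiDAC list and 4 of 16 for the SIN3 list. It was 3 of 18 for the other RBBP4 and RBBP7 complexes, 1 of 9 for the other deacetylases and 2 of 6 for the other methyl-CpG binding genes, and span lengths were not matched. Of the 8 companion genes called, BCL6, ARID4A, RCOR3 and GSE1 had such a region, and CTBP1, HDAC5, LIN54 and ZNF512B had none.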

How the data were processed

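RNA-seq and SALL4 CUT&RUN data of SNU398 cells were used as deposited. Gene-level raw counts were deposited by the authors for each RNA library (used throughout) and again in a combined matrix (an alternative). Per the submitters' processing notes, the tools named include STAR, featureCounts, DESeq2, Trim Galore 0.4.5, SEACR 1.1, HOMER 4.10 and BWA 0.7.17-r1188, with hg38 and sacCer3. For the strand setting and annotation nothing is given in the sources used here. The authors' deposited comparison table gives log2 fold changes, log2 mean expression, p-values and 2 scores per gene, and only its fold changes and adjusted p-values were used. The deposited peak files give the total and highest signal of each peak per library. In these the step between heights was 2.88, 2.64 and 3.3.

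Counts were tested with edgeR 4.0.16 in R 4.3.3 (filterByExpr, TMM, robust quasi-likelihood F test, Benjamini-Hochberg over 25807 genes, threshold 0.05). In simulated counts for these libraries, 200 of 25807 genes were changed, all drawn from the genes with a mean of at least 1 CPM. Of these, 57% of the 2-fold and 97% of the 4-fold changes were recovered, and beside these true calls there were 20 false calls among the unchanged genes. Regions were assigned to RefSeq spans (GRCh38.p14) by an overlap of at least 1 bp, and upstream sequences came from RefSeq. Replicates differed by more than sampling noise (chi-square per degree of freedom 162 and 166). The alternatives were leaving out each library, the replicate block, DESeq2 size factors, DESeq2 1.42.0, library size only, no filter, a mean CPM of at least 5, the combined matrix, and other overlap rules. All 10 subunits were named; of each companion list the called members, or the 2 furthest from 0 at 1 CPM or more, were named. SINHCAF and MIDEAS are listed under older symbols. For RBBP7 and MBD2 the 3 genes of most similar pattern were named. The members and lists were chosen with earlier results of these data known.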

Additional observations from a re-analysis of the deposited data

How the results depend on the processing

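Over 10 other settings, the replicate block not counted, RBBP7 and SALL4 were called in 10 of 10, and the 8 subunits that were not called had 0 calls. NuRD subunits called were 1 in place of 2 with library size only, with a mean CPM of at least 5 and with the combined matrix, and 1 to 2 when 1 library was left out; the subunit lost was MBD2 (log2 fold changes 0.73, 0.69 and 0.61, edgeR adjusted p = 0.0802, 0.0705 and 0.0815). With 1 library left out, the MTA2 value was -0.24 to 0.030 in place of -0.10. Genes changed were 1433, and 810 to 1191 with 1 library left out, 591 with library size only and 654 with a mean CPM of at least 5. Where a group was left with 1 library, that library was assumed to vary like the other group. Subunits with a SALL4 region were 1, and 3 with spans widened by 10 kb, 0 with at least 50% of the region inside, 0 with a position covered in all 3 libraries and 4 when a peak of each library counted. The cause of these differences was not tested.

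The replicate numbers are shared between groups, but the labels do not say that they mark a shared culture, and there are 2 pairs (correlation of same-numbered deviations 0.24 over 25807 genes). With the replicate block edgeR called 4921 genes and MBD2 was at 0.69 (adjusted p = 5.82e-06), and no subunit changed its call. With the combined matrix and the block, a setting chosen after seeing the data, edgeR called 5520 genes, and RBBP4 was called at 0.25 (adjusted p = 0.0274). With the block, which called 19.1% of all genes, edgeR called 2 of 8 other NuRD subunits, 5 of 15 recruiting factors, 3 of 16 SIN3 genes, 4 of 18 CoREST and MiDAC genes, 6 of 18 genes of other RBBP4 and RBBP7 complexes, 3 of 9 other deacetylases and 1 of 6 other methyl-CpG binding genes. The peaks were 2 to 6 steps high, which limits their precision.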

Other observations

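Among the genes around RBBP7 on chromosome X, SYAP1 was at 0.37, CTPS2 at -0.08 and TXLNG at -0.29 on the log2 scale, and none of these passed the test (edgeR, adjusted p = 0.323, 0.896 and 0.451). REPS2, the nearest listed gene beyond the RBBP7 start, was at 1.41 with under 1 CPM in each group, and NHS, also under 1 CPM, was at 0.05 (edgeR, adjusted p = 0.204 and 0.981). SCML1, a Polycomb-related gene further along, was called lower at -0.76 (edgeR, adjusted p = 0.0446). None of these 6 genes had a common SALL4 region in its span. On chromosome 18 the next tested protein-coding genes on each side of MBD2 (54151606-54224669) were taken, whatever their distance. ELAC1 was at 0.70, SMAD4, the shared signal carrier of the TGF-beta pathway, at 0.33 and MEX3C at 0.44. These 3 genes lie between 50968040 and 51197681, well away from MBD2. On the other side POLI, a DNA repair polymerase, was at 0.36, STARD6, under 1 CPM, at -0.33 and C18orf54 at -0.50. None of these 6 genes was called by edgeR (adjusted p = 0.0978 for ELAC1).

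Among 12515 genes of at least 1 CPM with a RefSeq symbol, those whose centred log2 CPM over the 4 libraries lay closest to RBBP7 were PIGCP1, a pseudogene, OSTM1, a lysosomal membrane protein, and ACAA1, a peroxisomal thiolase. Their root mean square differences from RBBP7 were 0.025, 0.066 and 0.067 on the log2 scale. Mean CPM in scramble and knockdown was 142.1 and 49.8 for OSTM1 and 24.7 and 8.59 for ACAA1. For PIGCP1 it was 1.96 and 0.635, near the 1 CPM limit, which was set on the mean of both groups. Closest to MBD2 were AP4S1, GPATCH2 and FAM133A at 0.028, 0.032 and 0.033, none of which was called by edgeR (adjusted p = 0.0523, 0.0599 and 0.0694).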
